A study of Homo sapiens with 8 samples.

Results

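Inflammasome and pyroptosis genes make up a set of 10 genes, whose entries were found by symbol: the sensors AIM2, NLRP1 and NLRP3, the adaptor PYCARD, the inflammatory caspases CASP1, CASP4 and CASP5, the gasdermins GSDMD and GSDME, and NINJ2. Each of the 10 had a single entry among the 46427 genes listed for NCI-H1944 and among the 61271 listed for NCI-H647. NCI-H1944 and NCI-H647 are established human lung cancer cell lines, and both carry the label wild type. Cells of each line received the drug BAY-1217389 at 100 nM, which blocks MPS1, a kinase of the mitotic checkpoint, or the solvent DMSO for 48 hours, and RNA was collected 24 hours after the drug had been removed. There were 4 groups of 2 libraries each: NCI-H1944 after the inhibitor, NCI-H1944 after DMSO, NCI-H647 after the inhibitor and NCI-H647 after DMSO. Poly(A) RNA was sequenced from NCI-H1944 and rRNA-depleted total RNA from NCI-H647, so a difference in level between the lines and a difference between the kits cannot be told apart.

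An inflammasome is a protein complex in which a sensor recognises a danger signal in the cytosol and recruits caspase-1, usually through the adaptor ASC, the product of PYCARD. Caspase-1 matures the cytokines interleukin-1 beta and interleukin-18 and cleaves gasdermin D, whose N-terminal fragment forms pores in the plasma membrane and kills the cell by pyroptosis. Caspase-4 and caspase-5 bind bacterial lipopolysaccharide directly and also cleave gasdermin D, while gasdermin E is cleaved by caspase-3. These genes are best known in macrophages and in barrier epithelia, and AIM2 senses double-stranded DNA.

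Libraries held 43661342 and 43067647 counts in NCI-H1944 after the inhibitor, 39332931 and 38904473 after DMSO, 13563037 and 13358514 in NCI-H647 after the inhibitor, and 19550859 and 17243487 after DMSO. In NCI-H647 the inhibitor libraries were the shallower ones, so raw counts there understate the level after the inhibitor. Levels are therefore also given as CPM, the count scaled to the TMM-adjusted library size. Fold changes and adjusted p-values come from edgeR's quasi-likelihood test across all genes of a line with Benjamini-Hochberg adjustment, a gene was called at an adjusted p under 0.05, and ± is the SD over 2 libraries for a level and the SE for a log2 fold change. Nothing in the labels states whether the replicates were separate cultures, and the p-values thus reflect only the spread among these libraries, which may be technical.

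After the inhibitor, CASP1, CASP4 and AIM2 were higher in both lines, NLRP1 and NLRP3 were higher in NCI-H647, and GSDMD was higher in NCI-H1944 but lower in NCI-H647. In NCI-H1944, 8 of the 10 genes had enough counts to be tested, and 4 of them rose (AIM2, CASP1, CASP4 and GSDMD) while 0 fell. Of all 16738 genes tested in that line 26.0% were called, 13.6% higher and 12.4% lower. In NCI-H647, 8 of the 10 were tested, and 5 rose (AIM2, NLRP1, NLRP3, CASP1 and CASP4) while 2 fell (GSDMD and GSDME). Of all 15049 genes tested there 54.4% were called, 27.3% higher and 27.0% lower, so a call was common in that line. AIM2 passed the filter on low counts in NCI-H1944 only through the inhibitor libraries, so its call there is not independent of the filter. Most changes were small: a test against a minimum change of 1.5-fold called AIM2 and CASP1, 2 of the 8 tested, in NCI-H1944, and AIM2, 1 of the 8 tested, in NCI-H647. That test called 2.55% of all genes in NCI-H1944 and 8.35% in NCI-H647. NLRP3, which was not tested in NCI-H1944, is described by a lower bound. In bulk RNA, fewer cells expressing a gene and less of its RNA per cell cannot be told apart.

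**Figure D1:**
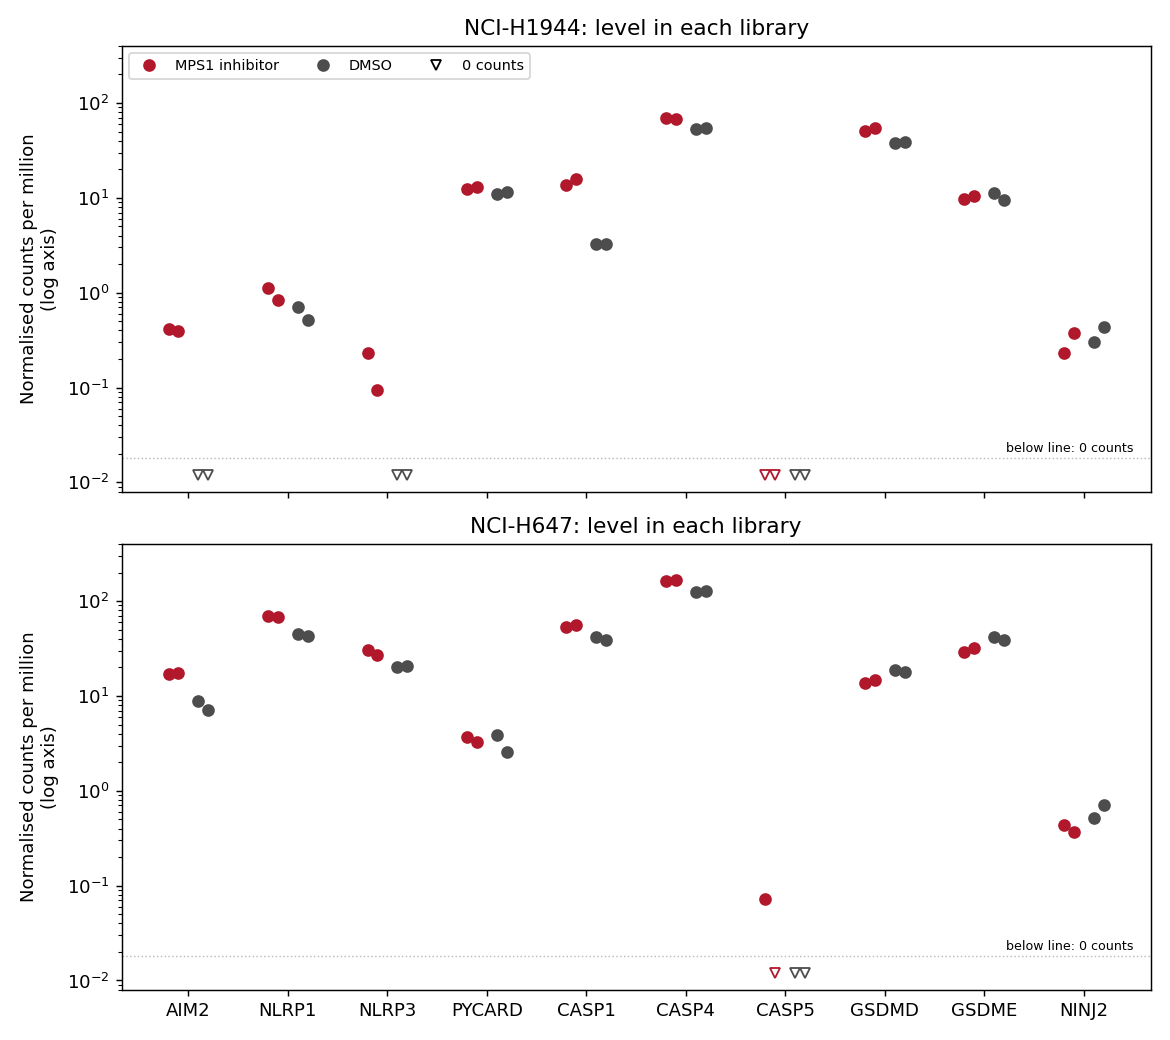
Level of each of the 10 genes in each library, in TMM-scaled CPM on a log axis, with the inhibitor libraries left of the DMSO libraries in each line. CASP1 in NCI-H1944 stands at 14.7 CPM after the inhibitor and 3.29 CPM after DMSO, and AIM2 is at 0 counts in both NCI-H1944 libraries given DMSO.

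Among the sensors, AIM2 was detected in NCI-H1944 only in the inhibitor libraries, and in NCI-H647 it was present throughout and rose. In NCI-H1944 it had 18 and 17 counts after the inhibitor and 0 and 0 counts after DMSO. The inhibitor libraries averaged 0.405 ± 0.0113 CPM (SD, n = 2). Its call there (edgeR adjusted p = 0.00126) tested the fitted change and is not independent of the filter, as said above. Set against a floor of 3 counts over the DMSO group, AIM2 was at least 10.6-fold higher after the inhibitor, a bound that was not itself tested. That bound covers counting error in the DMSO group only and takes the inhibitor counts as observed, as do those of NLRP3 and GBP5. The groups did not overlap, but the level after the inhibitor was still low. In NCI-H647 AIM2 had 236 and 235 counts after the inhibitor and 169 and 120 counts after DMSO. That is 17.2 ± 0.151 CPM after the inhibitor and 7.95 ± 1.23 CPM after DMSO, a 2.16-fold rise (log2 fold change 1.11 ± 0.12, edgeR adjusted p = 1.47e-06). Both inhibitor libraries lay above both DMSO libraries. AIM2 lies on the minus strand of chromosome 1, at 159061599 to 159187843 (build GRCh38, from the coordinates deposited for NCI-H647, as for the other genes). Its annotated span overlaps CADM3 on the opposite strand, which had 16 and 18 counts after the inhibitor and 13 and 8 after DMSO in NCI-H647. CADM3 was called higher there, but its DMSO libraries alone would not have passed the filter. The part of such reads in the AIM2 counts was not tested.

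NLRP1, a sensor of proteases and of double-stranded RNA that is prominent in human epithelium, was barely detected in NCI-H1944 and well expressed in NCI-H647. NCI-H1944 had 49 and 36 counts after the inhibitor and 28 and 20 after DMSO, and the difference did not pass the test (log2 fold change 0.68 ± 0.37, edgeR adjusted p = 0.206). In NCI-H647 the counts were 956 and 931 after the inhibitor and 864 and 734 after DMSO. Its level there was 69.0 ± 0.482 CPM after the inhibitor and 44.2 ± 1.26 CPM after DMSO (1.56-fold higher, log2 fold change 0.64 ± 0.05, edgeR adjusted p = 6.02e-08). The groups did not overlap in either line, but the few NLRP1 reads in NCI-H1944 gave its fold change a wide error. NLRP1 occupies chromosome 17, 5499415 to 5619424, on the minus strand, and shares 1580 bases with an unnamed protein-coding entry on the same strand that had 54 and 70 counts after the inhibitor and 68 and 59 after DMSO in NCI-H647.

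NLRP3, which responds to potassium efflux and to many forms of membrane damage, was too low to test in NCI-H1944. It had 10 and 4 counts there after the inhibitor and 0 and 0 after DMSO. Against the same floor of 3 counts, with the inhibitor counts taken as observed, NLRP3 was at least 4.24-fold higher. Without the filter on low counts its adjusted p in NCI-H1944 was 0.172 (edgeR). In NCI-H647 the counts were 416 and 362 after the inhibitor and 383 and 355 after DMSO. Scaled to CPM, NLRP3 stood at 28.5 ± 2.46 after the inhibitor and 20.5 ± 0.677 after DMSO, a 1.39-fold rise (log2 fold change 0.48 ± 0.08, edgeR adjusted p = 8.80e-05). The groups did not overlap on the CPM scale, although the raw counts did. The gene is on the plus strand of chromosome 1, 247416156 to 247449108.

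PYCARD, the adaptor that links a sensor to caspase-1, was not called in either line. In NCI-H1944 it had 543 and 551 counts after the inhibitor and 429 and 451 after DMSO. Its level was 12.7 ± 0.291 CPM after the inhibitor and 11.2 ± 0.446 CPM after DMSO, and although these did not overlap the difference missed the threshold (log2 fold change 0.18 ± 0.09, edgeR adjusted p = 0.188). In NCI-H647 PYCARD had 51 and 44 counts after the inhibitor and 74 and 44 after DMSO, with a log2 fold change of 0.09 ± 0.24 (edgeR adjusted p = 0.767). The DMSO libraries of NCI-H647 enclosed both inhibitor libraries on the CPM scale. The wide error of the NCI-H647 value leaves room for a change in either direction. PYCARD is a compact gene of 1965 bases on the minus strand of chromosome 16, 31201486 to 31203450.

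CASP1, the protease that executes most inflammasome signals, showed the largest tested rise of the set in NCI-H1944 apart from AIM2. It had 601 and 669 counts after the inhibitor and 130 and 128 after DMSO. These are 14.7 ± 1.30 CPM after the inhibitor and 3.29 ± 0.0215 CPM after DMSO, 4.48-fold higher (log2 fold change 2.16 ± 0.12, edgeR adjusted p = 6.67e-10). The groups were far apart. In NCI-H647, where CASP1 was already high, counts were 733 and 759 after the inhibitor and 798 and 667 after DMSO. Its level was 54.6 ± 1.99 CPM after the inhibitor and 40.5 ± 1.62 CPM after DMSO, 1.35-fold higher (log2 fold change 0.43 ± 0.05, edgeR adjusted p = 6.76e-06). The inhibitor libraries again lay above the DMSO libraries once scaled.

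CASP1 sits in a cluster of related genes on the minus strand of chromosome 11. In order of coordinate the cluster runs CASP12, CASP4LP, CASP4, CASP5, CASP1, CARD16, CARD17 and CARD18, with CASP4 at 104942866 to 104969366, CASP5 at 104994235 to 105023168 and CASP1 at 105025397 to 105035250. CARD16 encodes little more than a caspase recruitment domain that is nearly identical to that of caspase-1 and can block its recruitment, so reads of the 2 genes may have been shared between them. CARD16 had 166 and 214 counts after the inhibitor and 83 and 57 after DMSO in NCI-H1944 (log2 fold change 1.30 ± 0.22, edgeR adjusted p = 0.000306). In NCI-H647 it had 1055 and 1132 counts after the inhibitor and 1217 and 1076 after DMSO (log2 fold change 0.33 ± 0.06, edgeR adjusted p = 0.000108). Both neighbours were thus called higher in both lines, and how far shared reads link them was not tested.

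CASP4, the human sensor of cytosolic lipopolysaccharide in non-immune cells, was the most abundant caspase of the set per kb of exon in both lines and rose in each. NCI-H1944 had 2993 and 2930 counts after the inhibitor and 2108 and 2120 after DMSO. Levels were 68.6 ± 0.166 CPM after the inhibitor and 53.8 ± 0.454 CPM after DMSO, 1.27-fold higher (log2 fold change 0.35 ± 0.04, edgeR adjusted p = 1.89e-05). In NCI-H647 there were 2222 and 2271 counts after the inhibitor and 2382 and 2192 after DMSO. On the CPM scale these were 164 ± 4.47 after the inhibitor and 127 ± 3.55 after DMSO, 1.30-fold higher (log2 fold change 0.38 ± 0.05, edgeR adjusted p = 4.68e-06). The groups did not overlap in either line.

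CASP5, the closest relative of CASP4 and its neighbour, was at or near 0. No reads were counted in the 4 NCI-H1944 libraries, and in NCI-H647 it had 1 and 0 counts after the inhibitor and 0 and 0 after DMSO. A count of 0 in a group allows up to 3 counts over that group. CASP5 was therefore not detectable at this depth, and no fold change can be given.

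AIM2 and the CASP4 and CASP5 pair are shown by their promoters because AIM2 was called in both lines and because the pair contrasts an abundant gene with a nearly silent neighbour. Each window runs from 250 bases before to 50 bases after the start annotated by RefSeq in GRCh38.p14 and is written 5′ to 3′ on the gene's strand, which is minus for each. Capitals mark matches to the core of the interferon-stimulated response element, GAAANNGAA, or to the gamma-activated site, TTCNNNGAA, searched on both strands.
AIM2, chr1:159076717-159077016: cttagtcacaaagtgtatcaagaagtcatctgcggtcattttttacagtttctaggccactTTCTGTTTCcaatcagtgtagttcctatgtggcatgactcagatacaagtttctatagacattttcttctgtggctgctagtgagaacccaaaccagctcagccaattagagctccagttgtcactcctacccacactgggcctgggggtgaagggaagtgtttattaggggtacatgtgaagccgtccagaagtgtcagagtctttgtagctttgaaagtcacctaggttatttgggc
CASP4, chr11:104968525-104968824: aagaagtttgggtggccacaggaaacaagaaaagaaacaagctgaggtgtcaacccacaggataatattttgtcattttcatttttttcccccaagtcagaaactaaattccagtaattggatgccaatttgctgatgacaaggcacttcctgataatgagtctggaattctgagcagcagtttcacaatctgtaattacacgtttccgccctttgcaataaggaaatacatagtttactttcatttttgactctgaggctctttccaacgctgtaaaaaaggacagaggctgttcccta
CASP5, chr11:105023119-105023418: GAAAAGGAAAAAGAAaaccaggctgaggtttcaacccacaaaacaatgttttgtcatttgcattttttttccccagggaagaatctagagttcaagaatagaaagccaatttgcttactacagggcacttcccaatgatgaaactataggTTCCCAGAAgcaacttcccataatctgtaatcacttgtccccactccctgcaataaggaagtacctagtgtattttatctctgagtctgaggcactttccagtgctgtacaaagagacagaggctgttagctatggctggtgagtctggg
The AIM2 window held 1 match to the response element core, on the opposite strand. The CASP5 window held 2 overlapping matches to that core at its upstream end and 1 match to the gamma-activated site, and the CASP4 window held neither. Of 35116 RefSeq promoter windows of the same length, 8.11% held the response element core and 7.66% the gamma-activated site. Windows were at hand for 7 of the 10 genes, and no match to either motif was found in those of NLRP3, PYCARD, GSDME and NINJ2. CASP1, NLRP1 and GSDMD had no entry. The NF-kB form GGGNNNNNCC was in windows of 6 of the 7 genes, AIM2 being the exception, and in 58.7% of all windows. A match is a description of letters and not a binding site, and no match says only that the letters are missing from the window.

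Gasdermins form the pores, and in NCI-H647 both gasdermins of the set fell, whereas CASP1 and CASP4 rose there. GSDMB, a gasdermin outside the set, was 3.13-fold higher in that line. GSDMD, the main substrate of the inflammatory caspases, had 2227 and 2356 counts after the inhibitor and 1501 and 1532 after DMSO in NCI-H1944. Levels were 53.1 ± 2.78 CPM after the inhibitor and 38.6 ± 0.729 CPM after DMSO, 1.37-fold higher (log2 fold change 0.46 ± 0.05, edgeR adjusted p = 8.19e-06). In NCI-H647 GSDMD had 190 and 199 counts after the inhibitor and 363 and 307 after DMSO. There it averaged 14.2 ± 0.633 CPM after the inhibitor and 18.5 ± 0.587 CPM after DMSO, 1.30-fold lower (log2 fold change -0.38 ± 0.09, edgeR adjusted p = 0.00233). The groups were apart in both lines, in opposite directions, but the call in NCI-H647 was lost with DESeq2 (adjusted p = 0.0612).

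GSDMD lies on the plus strand of chromosome 8, 143553207 to 143563062, and 1510 bases of its span are shared with an unnamed long non-coding RNA on the opposite strand. That RNA had 106 and 87 counts after the inhibitor and 182 and 145 after DMSO in NCI-H647, a log2 fold change of -0.36 ± 0.14 (edgeR adjusted p = 0.0457). Whether counting used the strand is not given in the sources used here, so reads of the overlapping pair may not be separable. The part of these reads in the GSDMD result was not tested.

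GSDME, which is cleaved by caspase-3 and can turn apoptosis into pyroptosis, showed no call in NCI-H1944. Counts there were 427 and 449 after the inhibitor and 443 and 375 after DMSO, and the groups overlapped (log2 fold change -0.04 ± 0.11, edgeR adjusted p = 0.845). NCI-H647 had 397 and 430 counts after the inhibitor and 793 and 658 after DMSO. Scaled, GSDME was at 30.3 ± 2.06 CPM after the inhibitor and 40.1 ± 1.81 CPM after DMSO, 1.33-fold lower (log2 fold change -0.41 ± 0.06, edgeR adjusted p = 6.58e-05). Both inhibitor libraries of that line lay below both DMSO libraries. GSDME occupies chromosome 7, 24698355 to 24757940, on the minus strand.

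NINJ2, or ninjurin 2, is a membrane protein related to NINJ1, which ruptures the plasma membrane at the end of pyroptosis. NINJ2 was scarce, with 10 and 16 counts after the inhibitor and 12 and 17 after DMSO in NCI-H1944 (log2 fold change -0.29 ± 0.56, edgeR adjusted p = 0.761). In NCI-H647 it had 6 and 5 counts after the inhibitor and 10 and 12 after DMSO, too few for the test. Its span on chromosome 12, 564296 to 663589, overlaps the antisense gene NINJ2-AS1 over 32732 bases. NINJ2-AS1 fell in NCI-H647, with 68 and 67 counts after the inhibitor and 130 and 123 after DMSO (log2 fold change -0.50 ± 0.16, edgeR adjusted p = 0.0135). NINJ1 itself was abundant and was called in neither line, with log2 fold changes of -0.03 ± 0.05 in NCI-H1944 and 0.04 ± 0.06 in NCI-H647 (edgeR adjusted p = 0.756 and 0.557).

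**Figure D2:**
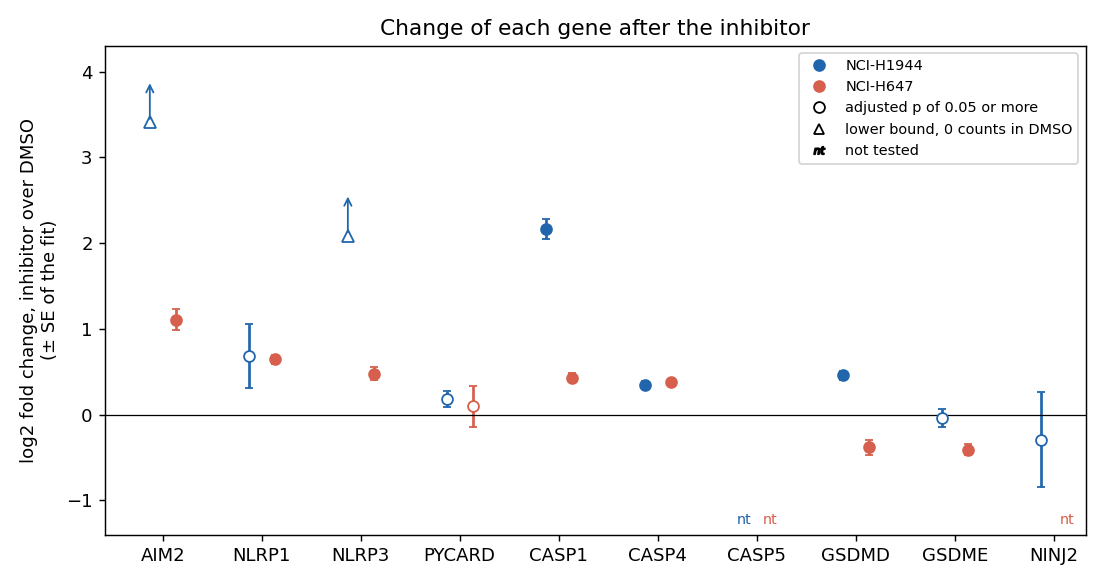
Log2 fold change of the inhibitor over DMSO with its SE for each tested gene in NCI-H1944 and NCI-H647; filled points were called at an adjusted p under 0.05, and AIM2 and NLRP3 in NCI-H1944 are drawn at their lower bounds because they had 0 counts after DMSO. The bounds take the inhibitor counts as observed. GSDMD lies at 0.46 in NCI-H1944 and at -0.38 in NCI-H647, while CASP4 lies at 0.35 and 0.38.

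Whether the lines differed in response was tested as the effect in NCI-H1944 minus the effect in NCI-H647, in a joint fit of the 8 libraries on 12887 genes. Of the 10 genes, 7 could be tested, and 4 had a more positive effect in NCI-H1944 while 0 had a more positive effect in NCI-H647. Of all genes tested 40.1% were called for this difference, 22.7% positive and 17.4% negative. CASP1 rose more in NCI-H1944, by 1.75 ± 0.12 on the log2 scale (edgeR adjusted p = 1.30e-10). For GSDMD the difference was 0.86 ± 0.11 (edgeR adjusted p = 7.68e-07), and here the effects had opposite signs. The AIM2 difference was called (edgeR adjusted p = 0.000547), but its size rests on a group at 0 counts and is not a bound. In NCI-H1944 AIM2 passed the filter only through the inhibitor libraries, so this call is not independent of the filter. GSDME differed by 0.39 ± 0.12 (edgeR adjusted p = 0.0151), a call that was lost under 8 of 15 alternative settings, 4 of them the omission of a single library, with adjusted p-values up to 1. CASP4 gave a difference of -0.00 ± 0.06 (edgeR adjusted p = 0.971). NLRP1 at 0.06 ± 0.24 and PYCARD at 0.11 ± 0.24 had wide errors (edgeR adjusted p = 0.863 and 0.757). Kit, table and line cannot be told apart in these differences.

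**Figure D3:**
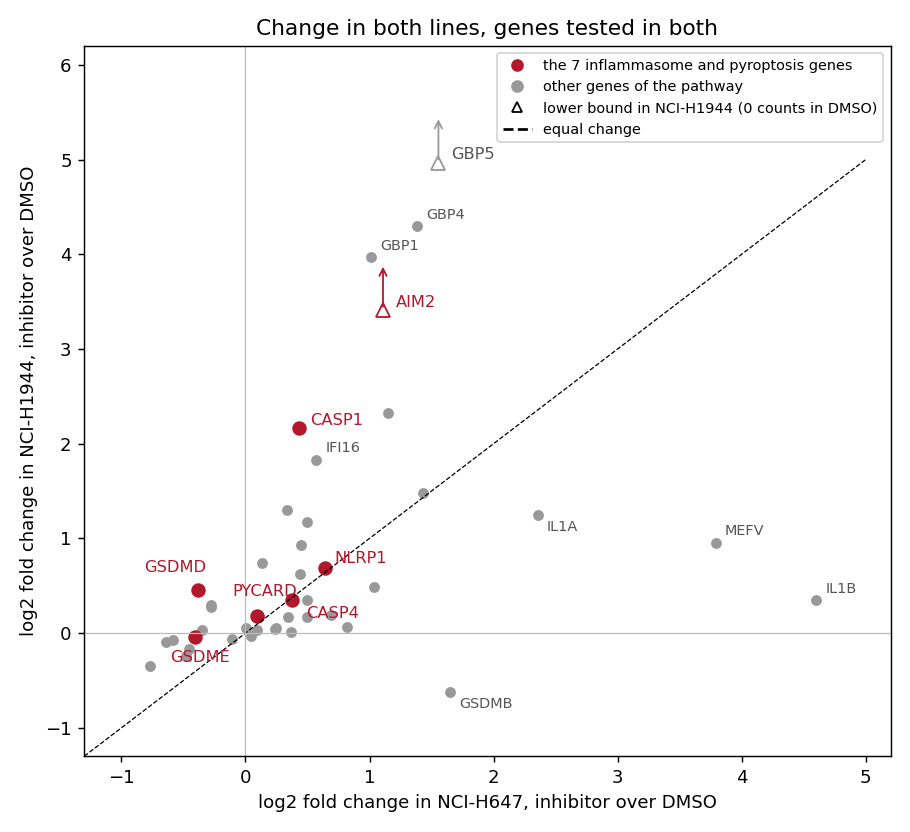
Log2 fold change in NCI-H1944 (vertical axis) against that in NCI-H647 (horizontal axis), for the 7 inflammasome and pyroptosis genes tested in both lines (red) and other genes of the pathway (grey). Triangles with arrows are lower bounds for genes with 0 counts in NCI-H1944 after DMSO, with the inhibitor counts taken as observed. CASP1 at 2.16 and 0.43 lies far above the line of equal change and IL1B at 0.35 and 4.60 far below it.

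Levels of different genes were compared per kb of exon, as CPM divided by the length of the merged exons in GENCODE release 29. Exons of all transcripts of a gene were merged, and the annotation release behind the deposited counts is not given. The order of genes thus depends on lengths that may not match the RNA counted. In NCI-H1944 after DMSO the order was GSDMD (7.45 and 7.65 CPM per kb), CASP4 (7.38 and 7.47) and PYCARD (6.56 and 6.94), then GSDME (1.27 and 1.08), CASP1 (0.893 and 0.884), NINJ2 (0.149 and 0.212) and NLRP1 (0.0555 and 0.0399). AIM2, NLRP3 and CASP5 were at 0. GSDMD and CASP4 overlapped in their library ranges and cannot be ordered, while PYCARD lay just under both. After the inhibitor CASP1 reached 3.73 and 4.23 CPM per kb and stood above GSDME, at 1.11 and 1.19. After DMSO, the sensors AIM2, NLRP1 and NLRP3 were at or near 0 in NCI-H1944, as were CASP5 and NINJ2.

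NCI-H647 had a different order. After DMSO CASP4 led with 17.1 and 17.8 CPM per kb and CASP1 followed with 11.3 and 10.6. GSDME (4.68 and 4.39), NLRP3 (4.20 and 4.40), AIM2 (4.39 and 3.52), GSDMD (3.70 and 3.54) and NLRP1 (3.52 and 3.38) lay close together, and neighbours in this order overlapped except GSDMD and NLRP1. PYCARD came next with 2.32 and 1.56, ahead of NINJ2 with 0.255 and 0.346. After the inhibitor AIM2 reached 8.53 and 8.63 CPM per kb and stood above NLRP3 at 6.35 and 5.62, NLRP1 at 5.42 and 5.36, GSDME at 3.26 and 3.59 and GSDMD at 2.70 and 2.87.

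**Figure D4:**
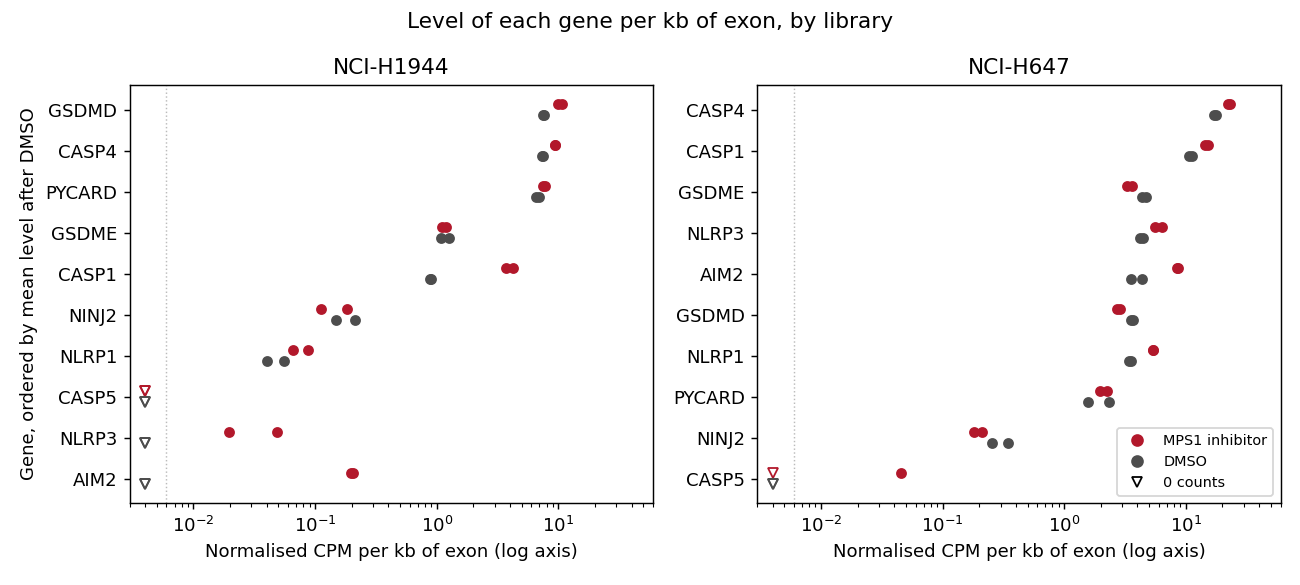
TMM-scaled CPM per kb of merged exon in each library (log axis), with genes ordered by their mean after DMSO in each line; open triangles are libraries with 0 counts. GSDMD, CASP4 and PYCARD head NCI-H1944, whereas CASP4 and CASP1 head NCI-H647, where the 3 sensors lie between 3.38 and 4.40 after DMSO.

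Other genes of the pathway were followed with a list of 59 genes, each listed in both tables. In NCI-H1944, 41 were tested, and 21 rose while 2 fell, with a median log2 fold change of 0.27 against 0.0011 over all genes tested, and 0.27 also with GBP5 at its lower bound. Of all genes in that line, 13.6% were called higher and 12.4% lower. The 41 include 6 genes whose DMSO libraries alone would not have passed the filter. Of these, GBP4, GBP5 and IL1RN were called higher, so these 3 calls are not independent of the filter. In NCI-H647, 39 were tested, and 23 rose while 8 fell, with a median of 0.44 against 0.0054 over all genes, of which 27.3% were called higher and 27.0% lower. There MEFV was the 1 gene that passed only through the inhibitor libraries. The guanylate-binding proteins, which coat bacteria and help caspase-4 and AIM2 to reach their ligands, were called higher in both lines, 5 of 5 tested in each, with GBP4 and GBP5 in NCI-H1944 subject to that filter. GBP1 had 1493 and 1375 counts after the inhibitor and 83 and 83 after DMSO in NCI-H1944 (15.7-fold, edgeR adjusted p = 2.34e-14), and was 2.02-fold higher in NCI-H647. GBP3 had log2 fold changes of 2.32 ± 0.09 in NCI-H1944 and 1.15 ± 0.07 in NCI-H647, both called. GBP5 was 2.94-fold higher in NCI-H647 and had 38 and 65 counts after the inhibitor and 0 and 0 after DMSO in NCI-H1944. There GBP5 was at least 31.2-fold higher against the floor of 3 counts, with the inhibitor counts taken as observed.

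Transcription factors that act on these genes rose as well, 5 of 5 tested in NCI-H1944, where 13.6% of all genes did, and 4 of 5 in NCI-H647, where 27.3% did. IRF1, an interferon-induced factor, was 2.78-fold higher in NCI-H1944 and 2.70-fold in NCI-H647. IRF2, known to drive GSDMD transcription, was 1.67-fold higher in NCI-H1944 (49.9 ± 0.0402 CPM after the inhibitor and 29.9 ± 0.156 CPM after DMSO, edgeR adjusted p = 2.41e-08). In NCI-H647 IRF2 missed the threshold, with a log2 fold change of 0.14 ± 0.06 (edgeR adjusted p = 0.0551).

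Of the sensors and triggers outside the set, 4 of 11 tested rose and 1 fell in NCI-H1944, where 26.0% of all genes were called, and 4 of 9 rose and 3 fell in NCI-H647, where 54.4% were called. Against those shares and in lists this short, the counts of this group and of the brakes, caspases, pore genes and cargo that follow are descriptions only. IFI16, a DNA sensor of the same family as AIM2, had 15901 and 15319 counts after the inhibitor and 4052 and 3917 after DMSO in NCI-H1944, 3.56-fold higher, and was 1.48-fold higher in NCI-H647. NEK7, the kinase that licenses NLRP3, was 1.21-fold higher in NCI-H1944 but 1.21-fold lower in NCI-H647. NLRX1, a mitochondrial relative of the sensors, fell in both lines, with log2 fold changes of -0.24 ± 0.08 in NCI-H1944 and -0.48 ± 0.15 in NCI-H647. BRCC3, which deubiquitinates NLRP3, fell 1.37-fold in NCI-H647. CARD8, a sensor related to NLRP1, was called in neither line, with log2 fold changes of 0.05 ± 0.08 in NCI-H1944 and 0.00 ± 0.05 in NCI-H647.

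Among the brakes on the pathway, 3 of 7 tested rose and 0 fell in NCI-H1944, and 4 of 7 rose and 1 fell in NCI-H647 (26.0% and 54.4% of all genes called). DPP9, the peptidase that holds NLRP1 and CARD8 inactive, was 1.29-fold higher in NCI-H647 and had a log2 fold change of 0.01 ± 0.05 in NCI-H1944. CHMP3, a membrane repair protein that removes gasdermin pores, fell 1.56-fold in NCI-H647. Of 4 other caspases that cleave gasdermins, 2 rose in NCI-H1944, and 2 rose and 2 fell in NCI-H647. CASP8, an initiator caspase that can cleave gasdermin D, was 1.23-fold higher in NCI-H1944 and 1.21-fold lower in NCI-H647. Of the remaining pore and rupture genes, 0 of 3 tested were called in NCI-H1944, while 1 of 4 rose and 0 fell in NCI-H647, again beside 26.0% and 54.4% of all genes called.

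The cargo group held genes of proteins released in pyroptosis and also the antagonists IL1RN and IL18BP. Of this group, 2 of 6 genes tested were called higher and 1 lower in NCI-H1944, and 3 of 5 higher and 2 lower in NCI-H647. Of all genes, 26.0% and 54.4% were called in these lines. IL1RN, which encodes the interleukin-1 receptor antagonist, is 1 of the 2 in NCI-H1944 and passed the filter there only through the inhibitor libraries. IL18BP, which encodes the interleukin-18 binding protein, is 1 of the 3 in NCI-H647 (1.76-fold higher, edgeR adjusted p = 0.00241). IL1B, the cytokine that caspase-1 matures, had 7688 and 7787 counts after the inhibitor and 456 and 386 after DMSO in NCI-H647, 24.3-fold higher (log2 fold change 4.60 ± 0.05, edgeR adjusted p = 2.06e-18). In NCI-H1944 it had 64 and 44 counts after the inhibitor and 39 and 38 after DMSO, and was not called (log2 fold change 0.35 ± 0.31, edgeR adjusted p = 0.470). The effect in NCI-H1944 minus that in NCI-H647 was -4.23 ± 0.24 (edgeR adjusted p = 3.30e-12). IL1A, an alarmin of the same family, was 2.37-fold higher in NCI-H1944 and 5.13-fold higher in NCI-H647. IL18, the other cytokine matured by caspase-1, was abundant in NCI-H1944, with 7093 and 6879 counts after the inhibitor and 6159 and 6220 after DMSO (log2 fold change 0.04 ± 0.03, edgeR adjusted p = 0.485). It fell 1.28-fold in NCI-H647 (edgeR adjusted p = 0.00154). HMGB1, a nuclear protein released by lytic death, fell in both lines, 1.27-fold in NCI-H1944 and 1.71-fold in NCI-H647. Transcript levels say nothing of cleavage or release of these proteins.

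Genes with the most similar profile were found by the Euclidean distance between log2 CPM profiles over the 8 libraries, centred within each line, among 12420 symbols. CASP1 lay nearest to TRIM14, TRIM5 and NLRC5, at distances of 0.153, 0.175 and 0.266. For CASP4 the nearest were PLPP3, ZFP36L1 and RNF114, from 0.0743 to 0.0846. RFX5 and NREP were among the 3 nearest to GSDMD, and likewise had positive fold changes in NCI-H1944 and negative ones in NCI-H647. GSDME lay nearest to POLD3, CEP97 and ANAPC7, and PYCARD to CNTNAP1, AP1G2 and PAQR7. AIM2 (FAM222A, DSP and HAPLN3) and NLRP1 (DLX2, ENKUR and CACHD1) were low in NCI-H1944, so the pseudocount of 0.5 CPM shaped their matches. The distances are a description, since all genes share the same 8 libraries and their 4 groups.

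Because these genes are best known in myeloid cells, markers of other cell types were read beside them. Of 11 myeloid markers, 6 were at 0 in all NCI-H1944 libraries (PTPRC, CSF1R, TYROBP, AIF1, C1QA and MPO) and 4 in all NCI-H647 libraries (TYROBP, AIF1, C1QA and MPO). Their summed level was 4.16 and 5.56 CPM after the inhibitor and 3.22 and 4.39 after DMSO in NCI-H1944, and 3.85 and 3.47 after the inhibitor and 2.24 and 1.77 after DMSO in NCI-H647. LYZ was the myeloid marker called higher in NCI-H1944, with 17 and 33 counts after the inhibitor and 0 and 5 after DMSO, and CD14 the one in NCI-H647, with 30 and 31 after the inhibitor and 11 and 12 after DMSO. For both, the DMSO libraries alone would not have passed the filter, so neither call is independent of it. The part of myeloid RNA in the results above was not tested. Of 3 red cell markers, HBA1 and HBA2 were called higher in NCI-H1944, where the summed level was 3.05 and 2.85 CPM after the inhibitor and 1.32 and 1.10 after DMSO, and 0 were tested in NCI-H647. Summed over 5 lymphoid markers, no library exceeded 0.148 CPM. The epithelial keratins KRT8 and KRT18 were abundant in both lines and moved in opposite directions between them, as GSDMD did, but KRT19 rose in NCI-H647. KRT8 was 1.23-fold higher in NCI-H1944 and 1.33-fold lower in NCI-H647, and KRT18 was 1.14-fold higher in NCI-H1944 and 1.23-fold lower in NCI-H647. Of the 6 epithelial and mesenchymal markers tested in each line, 3 rose and 0 fell in NCI-H1944, and 1 rose and 3 fell in NCI-H647, where VIM was 1.39-fold lower. Of all genes, 26.0% were called in NCI-H1944 and 54.4% in NCI-H647, so the counts of called markers of each cell type are descriptions only. The part of the epithelial and mesenchymal marker changes in the GSDMD result was not tested. KRT19 was at 0 in NCI-H1944 and was 1.28-fold higher in NCI-H647 (edgeR adjusted p = 0.0265), and EPCAM was called in neither line. CDH1 had 5 and 9 counts after the inhibitor and 3 and 8 after DMSO in NCI-H647.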

How the data were processed

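Column-purified, DNase-treated RNA was made into stranded libraries, per the labels' protocols. The authors deposited raw read counts per gene as whole numbers, with a table for each line. Aligners STAR and HISAT2, featureCounts, StringTie and the trimmers cutadapt, Trim Galore and Trimmomatic are named with build GRCh38, per the submitters' processing notes. Software versions, the annotation release and the strand setting: not given in the sources used here.

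Titles gave each library's line and treatment. In R 4.3.3, genes of each line were filtered with edgeR 4.0.16 (filterByExpr, minimum count 10, minimum total 15), scaled by TMM and compared by the quasi-likelihood test, two-sided, with Benjamini-Hochberg adjustment over all genes tested and a threshold of 0.05. The lines were fitted apart, and the line difference was an interaction term, fitted jointly on symbols tested in both. Library totals are in the report, and low genes are less precise in the shallower NCI-H647 libraries. Alternatives were DESeq2 1.42.0, other scalings and filters, a minimum fold of 1.5, a replicate block and leaving out each library.

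All 10 genes were named whatever their outcome. From the pathway list, IL1B, IL18, CARD8, DPP9, NINJ1, IFI16, IRF1, IRF2, CARD16 and CASP8 were always named, with up to 4 called higher and 4 called lower per line by smallest adjusted p. Marker genes, overlapping neighbours, IL1RN, IL18BP, GBP4, MEFV and GSDMB lie outside this rule and were named after their values were seen. Some genes that the rule took are not reported here. The genes and lists were chosen with earlier results of these data known. Exon lengths came from GENCODE release 29, and promoter windows from RefSeq.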

Additional observations from a re-analysis of the deposited data

Results flagged for a closer look

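For 4 genes the response to the inhibitor differed between the lines by edgeR's interaction test. The log2 effect in NCI-H1944 minus that in NCI-H647 was 5.47 for AIM2, 1.75 for CASP1, 0.86 for GSDMD and 0.39 for GSDME. The AIM2 value is a fitted one that depends on the prior count, since NCI-H1944 had 0 counts after DMSO. AIM2 passed the filter in NCI-H1944 only through the inhibitor libraries, so its call is not independent of that filter. CASP1 rose in both lines, GSDMD rose in NCI-H1944 and fell in NCI-H647, and GSDME fell in NCI-H647 with a value of -0.04 in NCI-H1944. The GSDMD fall in NCI-H647 was not called with DESeq2 (adjusted p = 0.0612). The GSDME difference lost its call under 8 of 15 alternative settings. NLRP3 is not among these 4, since it entered this test only without the filter on low counts. There its difference was 4.80 (edgeR adjusted p = 0.0286), likewise with 0 counts in NCI-H1944 after DMSO. Its NCI-H1944 reads lay only in the inhibitor libraries, and its unfiltered effect within that line was not called (edgeR adjusted p = 0.172). Line and library kit cannot be told apart in these values.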

How the results depend on the processing

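Of 276 values of single genes under the alternatives, 247 kept their direction and their side of the threshold, 17 lost a call and 12 changed sign, and those 12 were uncalled. Genes that a stricter filter removed are not among the 276. A minimum count of 50 removed AIM2 from the tests in NCI-H1944 and of the line difference, so its calls there were lost. Against a 1.5-fold minimum, calls among the 10 genes were 2 in NCI-H1944 and 1 in NCI-H647, and among pathway genes 10 and 12. Over all genes, that minimum gave 427, 1256 and 517 calls in NCI-H1944, NCI-H647 and the line difference, against 4346, 8184 and 5166. Without the low-count filter NCI-H1944 gave 2325 calls, and DESeq2 gave 5446 in NCI-H647. With single libraries left out, log2 fold changes ran from -0.15 to 0.081 for GSDME and from -0.68 to 0.014 for NINJ2 in NCI-H1944, and from -0.16 to 0.42 for PYCARD in NCI-H647. Line differences ran from -0.16 to 0.32 for NLRP1 (-0.018 without TMM factors), from -0.028 to 0.028 for CASP4 and from -0.23 to 0.36 for PYCARD. Leaving out a library changed no call of the 10 genes within a line; the cause of the GSDME losses in the line difference was not tested. There the adjusted p was 0.0832 without NCI-H1944 DMSO replicate 2, 0.0502 without NCI-H1944 inhibitor replicate 2, 0.0874 without NCI-H647 DMSO replicate 1 and 0.0831 without NCI-H647 inhibitor replicate 1. Deviations of same-numbered libraries were nearly uncorrelated over genes (correlation 0.0366 in NCI-H1944 and -0.0315 in NCI-H647). With 2 libraries per group this cannot settle whether the numbers pair them, and the libraries were treated as unpaired. With a replicate block, 4 and 7 of the 10 genes were called in NCI-H1944 and NCI-H647, and 4 for the line difference. That block called 23 and 32 pathway genes, and 4817 and 8434 of all genes, in NCI-H1944 and NCI-H647. Low counts limit the results of AIM2, NLRP1 and NLRP3 in NCI-H1944, although its libraries were the deeper ones, of PYCARD in NCI-H647, and of CASP5 and NINJ2 in both.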

Other observations

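Some pathway genes outside the naming rule were chosen after their values were seen. MEFV, which encodes the sensor pyrin, was called higher in both lines. It had 306 and 243 counts after the inhibitor and 133 and 124 after DMSO in NCI-H1944 (1.94-fold, edgeR adjusted p = 0.000237), and 30 and 25 after the inhibitor and 4 and 1 after DMSO in NCI-H647 (13.8-fold, edgeR adjusted p = 1.08e-05). In NCI-H647 MEFV passed the filter on low counts only through the inhibitor libraries. For GBP4 in NCI-H1944 the DMSO libraries alone would not have passed it, so neither call is independent of the filter. GSDMB, a gasdermin cleaved by granzyme A, was the pore gene called higher in NCI-H647, with 58 and 49 counts after the inhibitor and 26 and 19 after DMSO (3.13-fold, edgeR adjusted p = 9.28e-05). In NCI-H1944 GSDMB had 40 and 18 counts after the inhibitor and 40 and 41 after DMSO, and was not called (log2 fold change -0.62 ± 0.39, edgeR adjusted p = 0.284). GBP4 had 227 and 231 counts after the inhibitor and 8 and 13 after DMSO in NCI-H1944, 19.6-fold higher, and was 2.61-fold higher in NCI-H647.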
